A study of Mus musculus with 7 samples.

Results

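Immediate early genes and the feedback inhibitors of the ERK pathway were followed in MN9D cells, a hybrid mouse line of embryonic midbrain neurons and neuroblastoma cells that makes dopamine. The members were every probe set annotated to 10 listed genes, Egr1, Fos, Jun, Junb, Klf6, Dusp1, Dusp4, Dusp6, Spry2 and Spry4. The array held 14 such probe sets for 9 of these genes, among 22626 probe sets tested for 12393 named genes, and Dusp4 was not analysed here. RNA came from cells made to overexpress both mouse hemoglobin chains, alpha and beta (4 arrays), and from cells expressing the empty vector (3 arrays), on Affymetrix mouse 430A 2.0 arrays. The design text counts 8 hybridised arrays, and the 1 control array that failed quality assessment was not analysed here. The comparison sets cells made to express globin against empty vector cells. An effect of globin cannot be told apart from other differences between the groups of cells. The labels used here give no stimulation, serum state or harvest time, and do not say whether a group is 1 clone or a pool of cells.

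In the ERK pathway, growth factor receptors act through Ras, Raf and MEK kinases to activate the kinase ERK. Active ERK switches on immediate early genes within minutes, without new protein synthesis, through transcription factors such as SRF, Elk1 and CREB that are already bound at their promoters. ERK also induces its own inhibitors, the Sprouty proteins, which act upstream at the receptor and Ras, and the dual-specificity phosphatases, which remove the activating phosphates from MAP kinases. In neurons and neuroblastoma cells these genes respond to growth factors, depolarisation and stress.

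Values are deposited RMA values on the log2 scale. A change is the log2 difference of globin-labelled minus empty vector arrays, ± limma's standard error (n = 4 and n = 3). A probe set was called changed, or said to rise or fall, at a limma adjusted p under 0.05 (Benjamini-Hochberg over all 22626 probe sets). The labels do not say that replicates were separate cultures, so a p-value here reflects the spread among the arrays, which may be technical only. The number of arrays limits the precision.

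Array medians lay between 8.90 and 8.94. The 3 probe sets shared by Hba-a1 and Hba-a2, which encode alpha-globin, were 35.8-fold to 142-fold higher in the globin-labelled arrays. The probe sets of Hba-a2 alone and Hba-a1 alone did not pass (-0.03 ± 0.05 and 0.03 ± 0.06). Of 3 adult beta-globin probe sets 1 was called higher, 1.26-fold (limma adjusted p = 0.00558), and the others did not pass. The array thus showed no beta-globin rise like that of the shared alpha-globin probe sets, and the arrays are called globin-labelled wherever a direction is given. Of 6 genes listed as dopaminergic markers 1 was higher and 2 were lower. The 1 that was higher was Dbh, whose product turns dopamine into noradrenaline, so it does not mark dopaminergic cells. Of 8 neuronal markers 4 were higher and 3 lower. Among all 12393 genes 20.6% were called higher and 20.1% lower (1 probe set per gene). Dbh was 1.67-fold higher in the globin-labelled arrays, Th 1.62-fold lower and Ddc 1.16-fold lower. The largest neuronal changes were those of Stmn2 (2.29-fold lower), Prph (1.77-fold higher) and Tubb3 (1.74-fold lower). The fibroblast, astrocyte and erythroid markers had 0 calls among 6, 5 and 4 genes in limma, and of 5 endothelial markers 1, Kdr, fell by 0.27 ± 0.08. The mean level of the 5 macrophage markers was 6.15 to 6.20 in empty vector and 5.87 to 6.02 in globin-labelled arrays. Within that list Cd68 fell by 1.25 ± 0.09 and the other 4 genes did not pass. The part of these markers in the results below was not tested.

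Of the 14 member probe sets, 7 rose, 6 fell and 1 did not pass. Egr1, Fos, Dusp6, Spry2 and Spry4 rose, whereas Jun, Klf6 and Dusp1 fell, and Junb did not pass. Over all probe sets 39.5% were called, 18.3% higher and 21.2% lower, so calls were common on these arrays. The groups did not overlap for 13 of the 14, against 43.5% of all probe sets. Of the called member probe sets 7 differed 1.5-fold or more, as did 5.12% of all probe sets, and 2 differed 2-fold or more, as did 1.33% of all. The median size of the members' changes was 0.60 on the log2 scale, against 0.12 over all probe sets. Their median signed change was 0.16, since rises and falls were both among them, against 0.01 over all. The genes were chosen with earlier results of these data known, so these shares describe them and support nothing further. All 14 lay above the arrays' 10th percentile of 5.36 to 5.44 in both groups, the lowest group mean being 6.95 for Spry2.

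**Figure D1:**
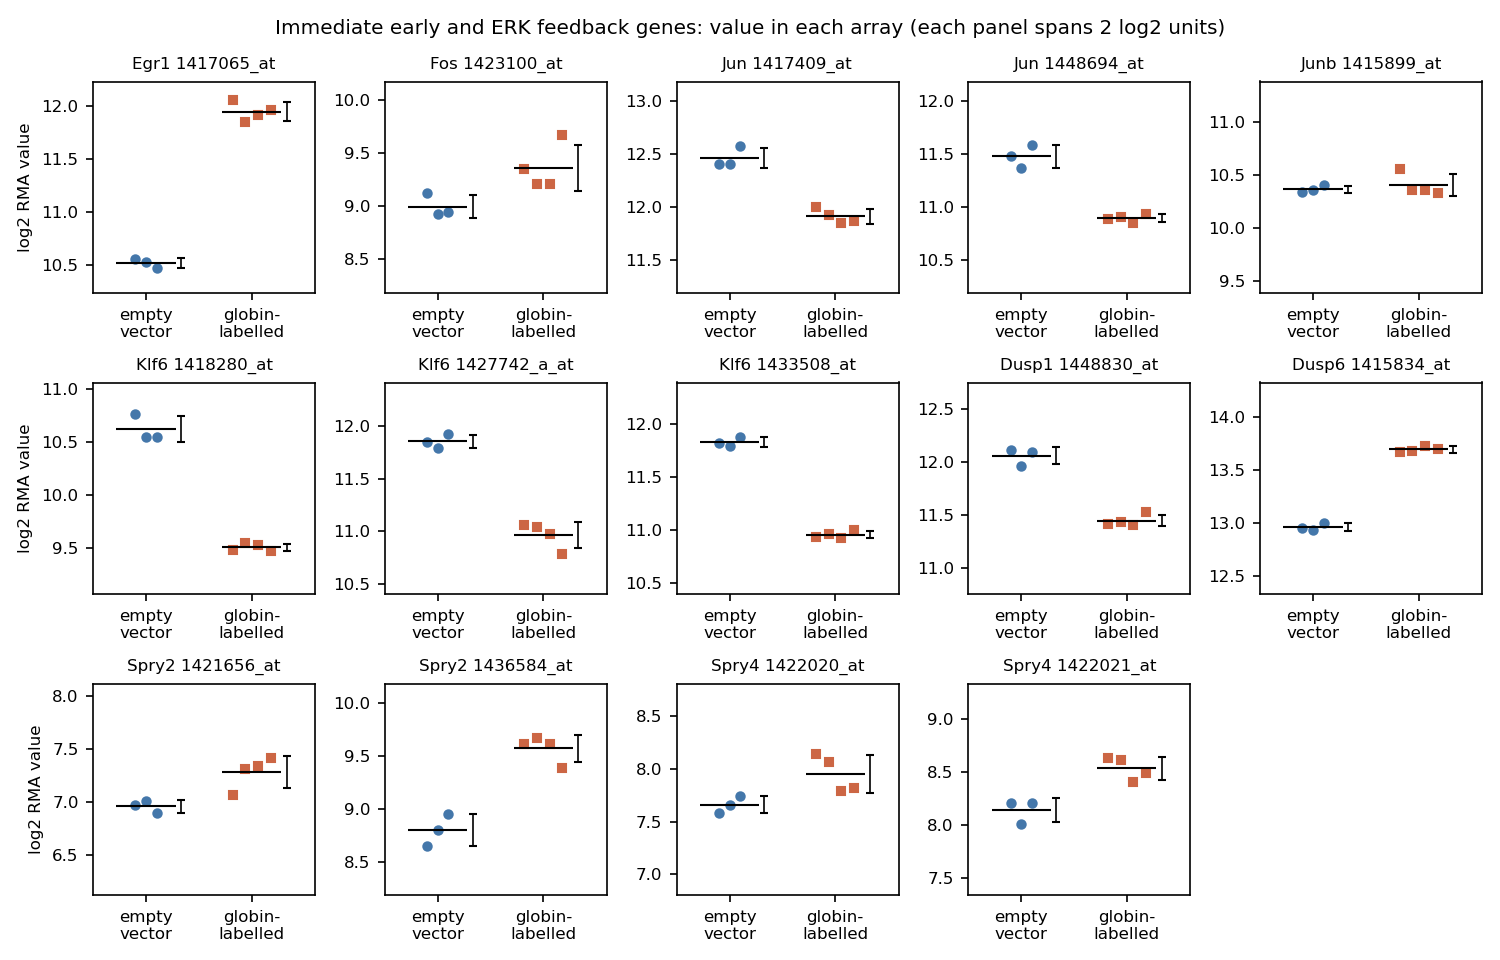
Log2 RMA value (vertical axis) of the 14 member probe sets in each empty vector array (circles, n = 3) and each globin-labelled array (squares, n = 4), with group means as horizontal lines and SD as bars. Each panel has its own axis that spans 2 log2 units, and the groups are apart in every panel except that of Junb.

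The stretches upstream of the start sites of Jun, Klf6, Dusp1 and Fos were searched for TGACNTCA, an 8-base pattern. Sites of this kind are bound by CREB, ATF and Jun proteins. The 3 genes that fell each hold a match. Fos, which rose, holds none, but holds the shorter TGACG, the start of the pattern where N is G. The TGACATCA of Jun and Klf6 does not contain TGACG, so this contrast depends on the pattern searched. The stretches are the 250 bases before the start, taken from RefSeq on GRCm38.p6, written 5′ to 3′ on the strand of the gene. Capitals mark TGACNTCA, TGACG and the TATA sequence TATAAA, each searched on both strands.
Jun, chr4:95052223-95052472, minus strand: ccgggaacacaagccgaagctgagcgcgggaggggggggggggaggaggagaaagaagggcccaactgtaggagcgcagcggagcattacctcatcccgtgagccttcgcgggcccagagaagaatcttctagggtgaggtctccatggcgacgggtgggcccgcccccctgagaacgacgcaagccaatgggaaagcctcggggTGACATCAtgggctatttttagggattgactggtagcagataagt
Klf6, chr13:5861239-5861488, plus strand: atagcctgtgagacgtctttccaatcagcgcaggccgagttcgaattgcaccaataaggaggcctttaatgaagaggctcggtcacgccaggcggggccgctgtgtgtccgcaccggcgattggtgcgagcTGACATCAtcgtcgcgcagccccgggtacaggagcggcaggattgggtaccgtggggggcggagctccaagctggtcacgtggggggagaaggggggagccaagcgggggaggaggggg
Dusp1, chr17:26508473-26508722, minus strand: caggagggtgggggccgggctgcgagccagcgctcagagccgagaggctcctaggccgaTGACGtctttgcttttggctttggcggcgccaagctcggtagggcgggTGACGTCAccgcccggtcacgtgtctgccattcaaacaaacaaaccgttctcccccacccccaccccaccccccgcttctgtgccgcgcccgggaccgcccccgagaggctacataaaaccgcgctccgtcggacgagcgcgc
Fos, chr12:85473640-85473889, plus strand: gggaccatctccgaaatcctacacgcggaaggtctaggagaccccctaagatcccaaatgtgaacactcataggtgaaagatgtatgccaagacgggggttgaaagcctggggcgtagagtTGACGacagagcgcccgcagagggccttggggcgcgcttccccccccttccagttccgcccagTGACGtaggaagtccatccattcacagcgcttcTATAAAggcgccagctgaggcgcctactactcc
The 8-base match began 45 bases before the start in Jun and 119 bases before it in Klf6, and read TGACATCA in both. In Dusp1 it read TGACGTCA and began 143 bases before the start, and a further TGACG began at 191. In Fos TGACG began at 129 and at 66 bases and TATAAA at 33. Both TGACG matches of Dusp1 near 143 overlap its 8-base match.

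Sequences were at hand for 7 members, and not for Egr1, Spry4 or Dusp4. Besides those shown above, Junb held 1 TGACG, 106 bases before its start, and the windows of Dusp6 and Spry2 held none of the letters searched. The AP-1 sequence TGANTCA, the ETS sequence CCGGAA, the EGR sequence GCGNGGGCG and the CArG box, to which SRF binds, matched in 0 of the 7 windows. Bases further upstream than 250 were not searched, so a site beyond the window would be missed. Of 32851 windows of the same length, 7.49% held TGACNTCA, 17.8% TGACG, 12.4% TATAAA, 6.75% TGANTCA, 12.0% CCGGAA, 4.70% GCGNGGGCG and 1.47% a CArG box. For the 9887 array genes with a window, a gene counted if any of its windows matched, which is not the share per window above. Counted per gene, the shares were 27.0% for TGACG, 21.3% for CCGGAA and 9.16% for GCGNGGGCG. They were 7.24% for TGACNTCA, 10.7% for TATAAA and 6.84% for TGANTCA. TGACNTCA was present for 8.30% of the array genes called lower, 6.16% of those called higher and 7.26% of those not called. In the same order TGACG was present for 32.9%, 27.5% and 24.7%, CCGGAA for 28.8%, 21.4% and 18.6%, and GCGNGGGCG for 10.4%, 11.7% and 7.81%. These sequences were picked with the members' values and letters in view. A match describes the letters and is not evidence of binding. Whether a match goes with the direction of a gene's change was not tested.

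Egr1, a zinc finger transcription factor and one of the most responsive ERK targets, had the largest rise among the members. It read 10.56, 10.53 and 10.47 in the empty vector arrays and 12.06, 11.85, 11.92 and 11.97 in the globin-labelled arrays. The gap between the groups was far wider than the spread within either. Means were 10.52 ± 0.05 in empty vector (SD, n = 3) and 11.95 ± 0.09 in globin-labelled arrays (SD, n = 4). The rise was 1.43 ± 0.05, or 2.69-fold (limma adjusted p = 1.67e-07). This was the rise of rank 94 among the 22626 probe sets. The other genes of the EGR family, Egr2, Egr3 and Egr4, did not pass, with -0.21 ± 0.08, 0.08 ± 0.06 and 0.01 ± 0.05, except that Egr2 was called lower after a further quantile normalization (-0.23, limma adjusted p = 0.0430). Egr2 was dim, with means of 5.67 in empty vector and 5.46 in globin-labelled arrays, near the arrays' 10th percentile of 5.36 to 5.44. Whether Egr1 differed from Egr2, Egr3 and Egr4 in its change was not tested. The 3 named genes nearest to Egr1, by Euclidean distance of centred log2 values over the 7 arrays, were Rgs2 (distance 0.16), Pygl (0.23) and Tlcd4 (0.23). Their rises on those probe sets were 1.38 ± 0.06, 1.47 ± 0.05 and 1.47 ± 0.05, and rises like that of Egr1 follow from how they were picked.

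Fos and Jun, which pair with each other in the transcription factor AP-1, moved in opposite directions. Fos read 9.12, 8.92 and 8.94 in the empty vector arrays and 9.34, 9.21, 9.21 and 9.67 in the globin-labelled arrays. Globin-labelled array 4 was the highest, and the lowest globin-labelled array lay only narrowly above the highest empty vector array. Its rise was 0.37 ± 0.11, or 1.29-fold (limma adjusted p = 0.0244). Leaving out empty vector array 2 or 3 ended the call (0.33 and 0.34, limma adjusted p = 0.0873 and 0.0820). The residual SD of Fos, 0.18, was at the 98.3rd percentile of all probe sets, the highest of any member.

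Jun was measured by a pair of probe sets that gave like values of its fall. On 1417409_at the empty vector arrays read 12.40, 12.41 and 12.57, and the globin-labelled arrays 12.00, 11.92, 11.85 and 11.87. On 1448694_at they read 11.48, 11.37 and 11.58, then 10.88, 10.90, 10.85 and 10.93. Every globin-labelled array was below every empty vector array on both. Jun fell by 0.55 ± 0.06 on the first and fell by 0.58 ± 0.05 on the second (limma adjusted p = 7.64e-05 and 3.51e-05), the first a 1.46-fold difference.

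Junb, a Jun relative that can restrain Jun's activity, was the member that did not pass. The empty vector arrays read 10.34, 10.36 and 10.40, and the globin-labelled arrays 10.56, 10.36, 10.36 and 10.33. The groups overlapped, and array 1 stood above the other globin-labelled arrays. The difference was 0.03 ± 0.06, with a 95% interval from -0.10 to 0.17 (limma adjusted p = 0.675), and it was -0.017 without that array. Jund, the constitutive family member, fell by 0.19 ± 0.06 (limma adjusted p = 0.0308), a call that was lost when arrays were centred on their 75th percentile (-0.15, limma adjusted p = 0.0649). Of 10 AP-1 genes measured here, 3 rose, 3 fell and 4 did not pass, where 20.6% of all 12393 genes were called higher and 20.1% lower (1 probe set per gene). Fosl1, which encodes the growth factor-induced subunit Fra-1, fell by 0.59 ± 0.06 (limma adjusted p = 8.84e-05), against the direction of Fos. Fosb and Fosl2 did not pass, with -0.04 ± 0.05 and -0.11 ± 0.08. Batf3 and Jdp2, partners that compete for AP-1 sites, rose by 0.26 ± 0.04 and 0.42 ± 0.05, though the other probe set of Jdp2 did not pass (0.01 ± 0.03).

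Klf6, a Krüppel-like zinc finger factor induced by serum and injury, fell on all 3 of its probe sets. On 1418280_at the empty vector arrays read 10.76, 10.55 and 10.54, and the globin-labelled arrays 9.48, 9.54, 9.53 and 9.47. On 1427742_a_at the values were 11.84, 11.79 and 11.92 against 11.06, 11.04, 10.97 and 10.79, and on 1433508_at 11.82, 11.79 and 11.88 against 10.93, 10.96, 10.92 and 11.00. No globin-labelled array came near an empty vector array on any of them. Klf6 fell by 1.11 ± 0.06 (2.17-fold), fell by 0.89 ± 0.07 (1.85-fold) and fell by 0.88 ± 0.04 (1.83-fold) on the respective probe sets, with limma adjusted p = 1.37e-06, 1.33e-05 and 6.31e-07. The first was the fall of rank 89 among all probe sets. Nearest to it over the 7 arrays were Cyp4v3 (distance 0.15), Rtp4 (0.18) and Igsf5 (0.18), which fell by 1.14 ± 0.08, fell by 1.04 ± 0.07 and fell by 1.12 ± 0.09. Falls like that of Klf6 follow from how these genes were picked. Of the other Krüppel-like genes on the lists, Klf10, an early target of TGF-beta, rose by 0.47 ± 0.04, and Klf4 did not pass on its brightest probe set (-0.14 ± 0.06), whereas its other one was called (-0.14 ± 0.05, limma adjusted p = 0.0386). Klf2 rose by 0.14 ± 0.05, but not after a further quantile normalization (0.10, limma adjusted p = 0.118).

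**Figure D2:**
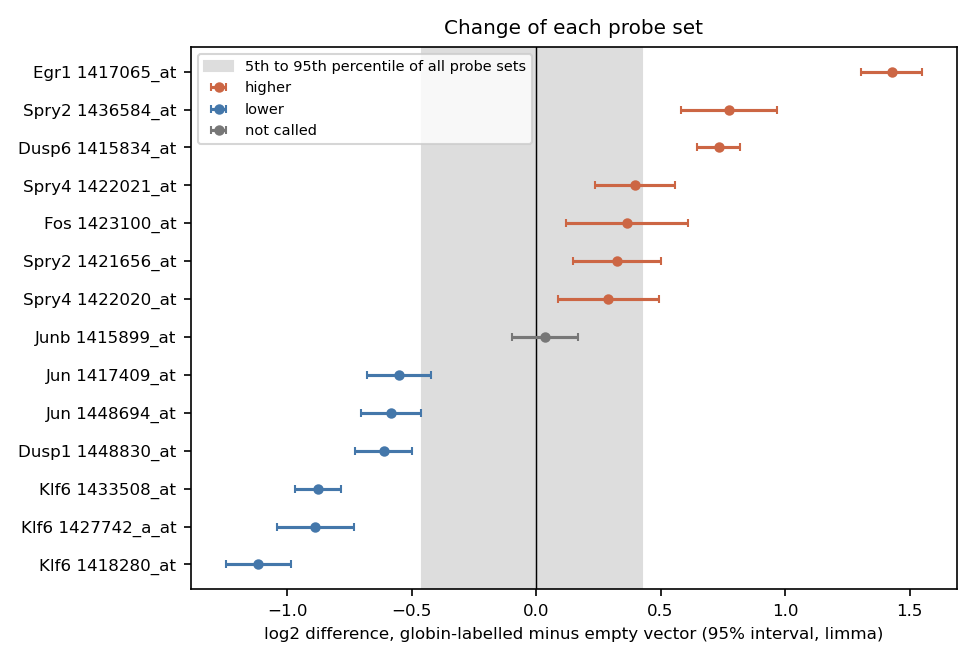
Log2 difference of each member probe set, globin-labelled minus empty vector (horizontal axis), with limma's 95% interval as bars and colours for higher, lower and not called. The grey band runs from the 5th percentile (-0.46) to the 95th percentile (0.42) of all probe sets, and Egr1, Dusp6 and 1 Spry2 probe set lie to its right, while Jun, Dusp1 and Klf6 lie to its left.

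Dusp6, the cytoplasmic phosphatase that acts selectively on ERK, rose with very little spread between arrays. It read 12.95, 12.93 and 13.00 in the empty vector arrays and 13.67, 13.68, 13.73 and 13.70 in the globin-labelled arrays. The groups were far apart, and the residual SD of 0.03 was at the 7.43rd percentile of all probe sets. The rise was 0.73 ± 0.04, or 1.66-fold (limma adjusted p = 1.46e-06).

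Dusp1, the nuclear phosphatase that acts on p38, JNK and ERK and is itself an immediate early gene, fell. Its empty vector arrays read 12.11, 11.96 and 12.09, and its globin-labelled arrays 11.41, 11.44, 11.41 and 11.52. All globin-labelled arrays were lower, and the spread within each group was small beside the gap. It fell by 0.61 ± 0.05, or 1.53-fold (limma adjusted p = 2.02e-05).

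The remaining MAP kinase phosphatases were sorted into textbook classes after the values were seen. Of 10 measured, members included, 3 rose, 6 fell and 1 did not pass, where 20.6% of all genes were called higher and 20.1% lower. The 3 that rose were the cytoplasmic ERK-selective phosphatases, Dusp6, Dusp9 (0.61 ± 0.04, limma adjusted p = 8.14e-06) and Dusp7 (0.23 ± 0.05, limma adjusted p = 0.00594). All 3 probe sets of Dusp9 rose, and 2 of the 3 of Dusp7. The nuclear inducible phosphatases Dusp1 and Dusp2 fell, Dusp2 by 0.45 ± 0.07, while Dusp4 and Dusp5 were not analysed here. The 3 phosphatases selective for JNK and p38 also fell, with -0.57 ± 0.05 for Dusp8, -0.46 ± 0.05 for Dusp16 and -0.35 ± 0.05 for Dusp10. Of the small atypical phosphatases, Dusp14 fell by 0.70 ± 0.04, and Dusp3 did not pass on its brightest probe set (-0.00 ± 0.04), where its sign turned under other scalings of the arrays. Its other probe set fell by 0.45 ± 0.04 (limma adjusted p = 3.49e-05). No call on the brightest probe sets of these 10 genes changed under the 3 other scalings tried. Whether the classes differ was not tested.

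Spry2, a Sprouty protein that blocks signalling between receptor tyrosine kinases and Raf, rose on both of its probe sets. On 1436584_at the empty vector arrays read 8.65, 8.80 and 8.95, and the globin-labelled arrays 9.62, 9.68, 9.62 and 9.38. On 1421656_at they read 6.97, 7.01 and 6.89, then 7.06, 7.30, 7.34 and 7.41. The groups were apart on both, widely on the first and narrowly on the second, where globin-labelled array 1 lay close to the empty vector arrays. The rises were 0.77 ± 0.09 (1.71-fold, limma adjusted p = 1.07e-04) and 0.32 ± 0.08 (1.25-fold, limma adjusted p = 0.00853). The second was not called without both empty vector array 1 and globin-labelled array 4 (0.29, limma adjusted p = 0.0609).

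Spry4, a second Sprouty inhibitor of the pathway, rose on both of its probe sets by smaller amounts. On 1422021_at the empty vector arrays read 8.21, 8.01 and 8.21, and the globin-labelled arrays 8.64, 8.61, 8.41 and 8.49. On 1422020_at they read 7.58, 7.66 and 7.74, then 8.14, 8.07, 7.79 and 7.81. Globin-labelled arrays 1 and 2 were the higher pair on both probe sets, and the groups did not overlap, though only narrowly on 1422020_at. The rise was 0.40 ± 0.07 (1.32-fold, limma adjusted p = 0.00186) on the first and 0.29 ± 0.09 (1.22-fold, limma adjusted p = 0.0285) on the second. The call on 1422020_at was lost without empty vector array 1 (0.25, limma adjusted p = 0.103), empty vector array 2 (0.29, 0.0759), globin-labelled array 1 (0.23, 0.0594) or globin-labelled array 2 (0.25, 0.0752), and when globin-labelled array 4 was left out together with empty vector array 1 (0.30, 0.0835).

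Of the 5 Sprouty and Spred genes measured, the 3 Sprouty genes rose and the 2 Spred genes fell, under every array scaling tried. Of all genes 20.6% were called higher and 20.1% lower, and whether Sprouty and Spred genes differ was not tested. Spry1 had the largest rise of the 3 Sprouty genes, from 8.76 to 9.85, or 1.08 ± 0.04 (limma adjusted p = 1.79e-07). Spred1 and Spred2, relatives that also inhibit Ras signalling to Raf, fell by 0.28 ± 0.05 and fell by 0.23 ± 0.04, though the other probe set of Spred2 did not pass (-0.08 ± 0.08). The residual SDs of the 4 Spry2 and Spry4 probe sets were at the 81.4th to 94.2nd percentile of all probe sets.

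**Figure D3:**
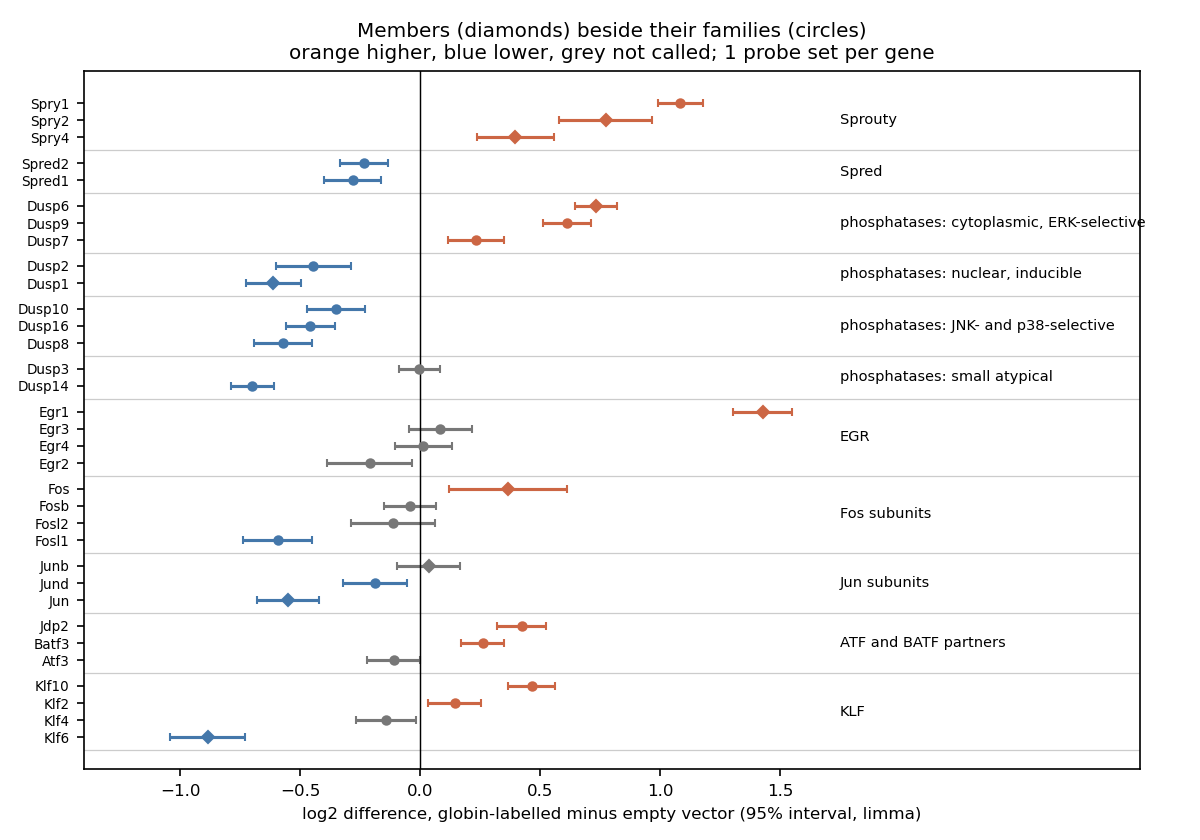
Log2 difference, globin-labelled minus empty vector (horizontal axis), for members (diamonds) and other listed genes of their families (circles), 1 probe set per gene, with limma's 95% interval as bars. Sprouty genes and the ERK-selective phosphatases lie to the right of 0, and the nuclear and the JNK- and p38-selective phosphatases lie to the left.

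Where a member had several probe sets, the size of its change was compared between them by an exact two-sided permutation test over the 7 arrays, with 0.0286 the smallest p that 35 splits allow. Over 6 such pairs, adjusted p ranged from 0.171 to 1. The widest gap was that of Spry2, 0.45 (p = 0.0857, adjusted 0.171, exact permutation). For Klf6 the fall on 1418280_at was larger than that on 1433508_at by 0.24 (p = 0.0286, adjusted 0.171, exact permutation), the lowest adjusted value a single pair could reach. For the Jun pair the gap was 0.03 (p = 0.571, exact permutation).

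The rest of the pathway is given by 5 lists, each gene standing as its brightest probe set with 1 symbol, where 40.7% of all 12393 genes were called, 20.6% higher and 20.1% lower. On that basis 5 of 9 members rose and 3 fell. Other ERK feedback and output genes had 9 of 22 measured higher, 9 lower and 4 not called. Their median change was -0.06, against 0.02 over all genes. Besides Spry1, Dusp9, Dusp14 and Dusp8, the called genes with the smallest p included Ier3, an early survival gene, which rose by 0.50 ± 0.05. Ccnd1 and Myc, growth-promoting outputs of the pathway named here after their values were seen, rose by 0.42 ± 0.05 and 0.21 ± 0.06.

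Other immediate early genes also moved both ways, with 9 of 38 higher, 11 lower and 18 not called (median -0.04). Rgs2, a regulator of G protein signalling, rose by 1.38 ± 0.04, the largest rise in the list, and its 2 probe sets rose alike. Zfp36l1, which promotes decay of short-lived messenger RNAs, rose by 1.33 ± 0.12, though by 0.55 ± 0.08 on its other probe set. Ier2 rose by 0.70 ± 0.06. Sgk1, a serum- and glucocorticoid-induced kinase, fell by 0.86 ± 0.04. Klf10 completed the 5 with the smallest p.

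Genes of the ERK cascade itself had 6 of 26 higher, 7 lower and 13 not called (median -0.02). The ERK kinases were not analysed here. Pea15a, a cytoplasmic anchor of ERK, fell by 0.88 ± 0.05, and by 0.85 ± 0.05 on its other probe set. Grb2, the adaptor that brings Sos to receptors, fell by 0.77 ± 0.05, but by only 0.41 ± 0.04 on its other probe set. Rasa2, a Ras GTPase-activating protein, fell by 0.63 ± 0.05. Mknk1, a kinase activated by ERK, fell by 0.45 ± 0.04 on its brightest probe set, and 1 of its other 2 did not pass (0.03 ± 0.04). Rras2, a Ras-related GTPase, rose by 0.49 ± 0.05. The MEK genes Map2k1 and Map2k2, named after their values were seen, had -0.10 ± 0.04, not called, and a rise of 0.27 ± 0.07, though the other probe set of Map2k2 did not pass (0.07 ± 0.05).

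Factors that act on immediate early promoters, with the Egr1 corepressors, had 2 of 16 higher, 8 lower and 6 not called (median -0.14). With the replicate number as a block, 5 of these 16 were called instead of 10, and 14 after a further quantile normalization. Crem, a CREB relative whose products include a repressor, fell by 0.84 ± 0.07. All 3 of its probe sets fell, the others by 0.29 ± 0.07 and 0.24 ± 0.08. Elk1 and Elk4, the ERK-responsive partners of SRF, fell by 0.23 ± 0.05 and fell by 0.22 ± 0.05, though the other 2 probe sets of Elk4 did not pass. Jdp2 and Batf3 were the pair that rose. Srf and the Egr1 corepressor Nab2 did not pass, with 0.09 ± 0.04 and 0.12 ± 0.05.

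In the JNK, p38 and ERK5 branches, 6 of 15 genes were higher, 3 lower and 6 not called (median 0.01). Map3k5, a stress-activated kinase upstream of JNK and p38, rose by 0.54 ± 0.06. The p38 genes Mapk11 and Mapk14 rose by 0.37 ± 0.05 and 0.27 ± 0.04, and 2 of the 4 probe sets of Mapk14 were called. Map2k4, a kinase that activates JNK, rose by 0.26 ± 0.05. Map3k7, which encodes TAK1, fell by 0.35 ± 0.06 on its brightest probe set, while another of its 5 rose by 0.30 ± 0.05. Limma adjusted p for the 25 genes named by smallest p ranged from 6.38e-08 for Rgs2 to 0.00806 for Elk4.

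**Figure D4:**
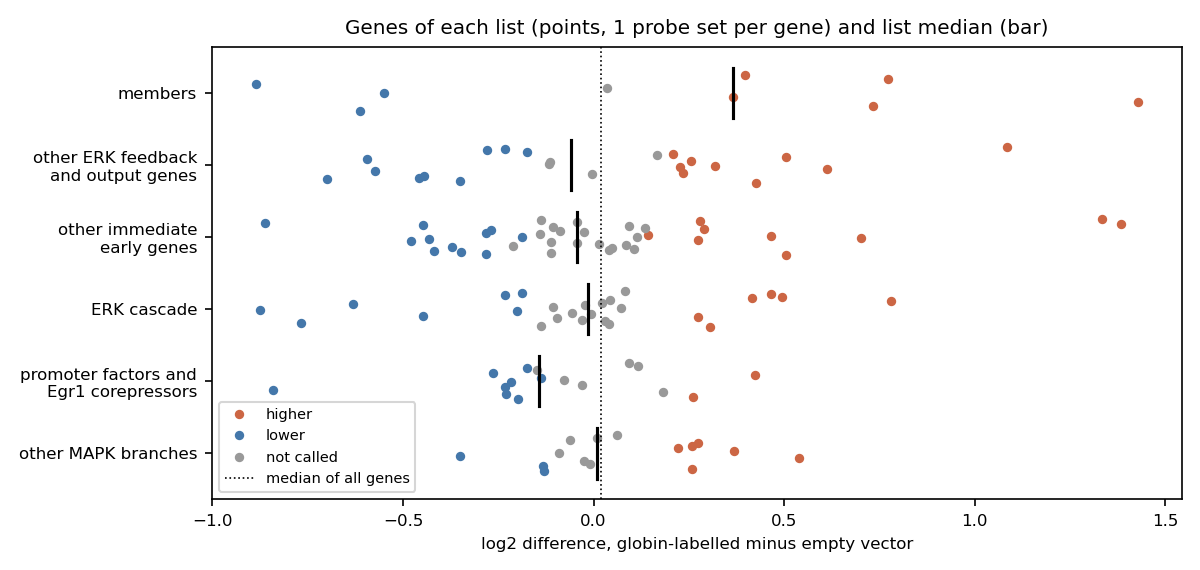
Log2 difference, globin-labelled minus empty vector (horizontal axis), of each gene (points, coloured by call, 1 probe set per gene) in the member list and the 5 pathway lists, with each list's median as a bar and the median of all genes (0.02) as a dotted line. Every list holds called genes on both sides of 0, and the list medians run from -0.14 for promoter factors to 0.37 for the members.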

How the data were processed

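The authors deposited RMA values on the log2 scale, per the submitters' processing notes, for RNA labelled by one-cycle amplification, per the labels' protocols. The program that ran RMA is not given in the sources used here. This method makes the arrays' distributions alike, which hides a change common to most transcripts and compresses large folds. Arrays carry no read depth.

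Groups came from the sample titles. Of 22690 probe sets, 64 array controls were left out, and 20380 of the others had 1 gene symbol in the platform annotation. Limma 3.58.1 in R 4.3.3 (lmFit, eBayes, 5 residual and 9.10 total degrees of freedom, 95% intervals) was fitted on all 22626 probe sets with group as the only term, and was checked on simulated data. No set test was run. Named were all member probe sets, the 5 called genes with the smallest p in each pathway list, and the 3 probe sets nearest to the largest rise and to the largest fall. Members and lists were chosen with earlier results of these data known. Entrez identifiers of all 9 measured members matched RefSeq. Alternatives were other array scalings, eBayes settings, probe filters, left-out arrays, the mean of a gene's probe sets and a replicate block.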

Additional observations from a re-analysis of the deposited data

Results flagged for a closer look

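In 4 of 39 probe sets looked at, 1 globin-labelled array stood apart from the other 3 by a gap large for the range of the group. For normally distributed values chance gives about 1 in 20. Junb read exactly the same in globin-labelled arrays 2 and 3, so that rate may not hold here. Junb in array 1 read 10.56, against 10.33 to 10.36 in the others. Ier2 in array 1 read 11.19, against 10.98 to 10.99. Ier3 in array 3 read 11.26, against 11.35 to 11.37, and Mapk11 in array 2 read 9.71, against 9.84 to 9.85. Without array 1 the difference of Junb went from 0.03 to -0.017, and neither value passed.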

How the results depend on the processing

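Across 15 alternatives the 14 member probe sets gave 210 values, of which 201 kept their direction and their side of the threshold, 8 kept the direction and lost the call, and 1 turned sign, that of Junb without globin-labelled array 1 (-0.017, limma adjusted p = 0.785), which was not called in either case. The lost calls were those of Fos, Spry4 on 1422020_at and Spry2 on 1421656_at, each in a fit with fewer arrays. With 1 array left out, Fos ranged from 0.26 to 0.43, Spry4 on 1422020_at from 0.23 to 0.34 and Junb from -0.017 to 0.059. Without both empty vector array 1 and globin-labelled array 4, an alternative chosen with earlier results known, Spry2 on 1421656_at (0.29, limma adjusted p = 0.0609) and Spry4 on 1422020_at (0.30, limma adjusted p = 0.0835) were not called. Between 11 and 13 member probe sets were called with 1 array left out, and 7803 to 8271 of all. Centring arrays on their 75th percentile turned the split of calls over all probe sets to 5276 higher and 4099 lower, from 4131 and 4800, while the members kept 7 and 6.

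Same-numbered arrays of the groups did not deviate together (correlations of deviations -0.36, -0.30 and -0.14). So few pairs cannot show whether the numbers pair the arrays, and the main fit treats the arrays as unpaired. With the replicate block, which left out globin-labelled array 4, 6337 of all probe sets and 13 member probe sets were called, and the list of promoter factors and Egr1 corepressors went from 10 to 5 called genes (14 after a further quantile normalization), in a fit with fewer arrays and fewer degrees of freedom.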
